A study of Callithrix jacchus with 5 samples.

Results

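Transcripts of 5 cell-surface receptors were followed in marmoset cells in culture (Callithrix jacchus, a New World monkey): PDGFRA, PDGFRB, FGFR1, NRP1 and ITGA11. They are named receptors for growth factors and for matrix, and each was found by matching the marmoset gene identifiers of the count table to symbols. All 5 matched a single identifier, out of 30811 in the table. RNA sequencing covered 5 libraries: 1 of induced pluripotent stem (iPS) cells titled RNAiPS_1, 1 of fibroblasts titled E01F and P1, and 3 of embryonic stem (ES) cells from lines No40, DSY127 and No20, whose titles carry P numbers of 63, 17 and 45. The iPS cells were made from fibroblasts by RNA-based reprogramming, per the series title, and the labels give neither their parent culture nor the age, tissue or number of animals behind any library. The iPS library is labelled as a single sample, so it stands for 1 preparation, and each ES library stands for its own line.

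Growth factor receptors of the PDGF and FGF families are membrane kinases: a ligand pairs receptor molecules, these phosphorylate each other, and adaptor proteins then start the RAS-ERK and PI3K pathways. PDGFRA and PDGFRB bind platelet-derived growth factors and are best known in fibroblasts, mural cells of vessels and other mesenchyme. FGFR1 binds fibroblast growth factors, which culture media for primate pluripotent cells commonly supply. NRP1, neuropilin-1, has no kinase of its own and acts as co-receptor for VEGF-A and class 3 semaphorins, beside VEGF receptors and plexins. ITGA11 encodes integrin alpha 11, which pairs with integrin beta 1 to bind fibrillar collagen and is known in fibroblasts.

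Positions are in the coordinates of the count table, for which no genome build is named. PDGFRA (ENSCJAG00000018415) lies on the minus strand of chromosome 3 from 139301762 to 139367102. PDGFRB (ENSCJAG00000021070) lies on chromosome 2 from 47573922 to 47617593 and FGFR1 (ENSCJAG00000002394) on chromosome 13 from 36234953 to 36297099, both on the minus strand. NRP1 (ENSCJAG00000013753) spans 29992632 to 30151038 on chromosome 7 and ITGA11 (ENSCJAG00000002269) 10830521 to 10994732 on chromosome 10, again on the minus strand. The gene models hold 27, 24, 26, 17 and 30 separate exon blocks for PDGFRA, PDGFRB, FGFR1, NRP1 and ITGA11, and their exons sum to 6761, 5542, 5172, 3609 and 4663 bases. None of the 5 spans is crossed by another gene model of the table on either strand, so shared reads with an overlapping annotated neighbour do not enter their counts. Counts are per gene, so isoforms of a receptor are not separated.

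Total counts were 5746449 in the iPS library, 58601185 in the fibroblast library and 34111715 to 46523012 in the ES lines. Levels are in CPM, a scaled count that allows for library size through TMM factors, and 3 counts corresponded to 0.507 CPM in the iPS library, 0.063 CPM in the fibroblast library and 0.061 to 0.0834 CPM in the ES lines. The summed level of 9 measured fibroblast markers was 11250 CPM in the iPS library, 74120 CPM in the fibroblast library and 1425 to 2563 CPM in the ES lines. For 8 pluripotency markers the sums were 4988, 26.6 and 3091 to 6263 CPM in the same order. Against the ES lines, 9 of 9 fibroblast markers were higher and 8 of 8 pluripotency markers lower in the fibroblast library. Of all genes tested, 8.8% were called higher and 9.28% lower in that library. In the iPS library, 2 of 9 fibroblast markers (COL1A2 and PRRX1) were higher and 0 of 8 pluripotency markers passed. Over all genes tested, 0.109% were called in the iPS library. The fibroblast marker count there was 0 without line No40, 4 without line No20, 4 with DESeq2, 4 with no low-count filter and 1 with limma voom, where PRRX1 did not pass. At an unadjusted p under 0.05 in the edgeR test it was 5, beside 5.56% of all genes tested that were higher. For the pluripotency markers in the iPS library it was 0 with DESeq2, with limma voom and at an unadjusted p under 0.05. In the fibroblast library 7 of 8 pluripotency markers were lower with limma voom and without line No40, where GDF3 did not pass. In bulk RNA, fewer cells of a type and less RNA per cell cannot be told apart.

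The fibroblast comparison asked how these cells differ from established pluripotent lines. PDGFRA, NRP1 and ITGA11 rose in the fibroblast library by 28.0-fold to 63.1-fold, while PDGFRB and FGFR1 did not pass the test. The 3 receptors that rose compare with 8.8% of 17462 genes tested that were called higher. The receptors were chosen with earlier results of these data known, so this is not a measure of enrichment. All genes entered 1 edgeR quasi-likelihood fit. The spread of each gene rested on 2 residual degrees of freedom, both between ES lines, and was moderated with information from all genes. A gene was called at a Benjamini-Hochberg adjusted p under 0.05. The lone fibroblast and iPS libraries have no replicate check of their own. The fibroblast calls over the whole table split into 1537 upward (8.8%) and 1620 downward (9.28%), and into 1066 and 2016 with scaling by total counts alone. That scaling moved the all-gene median log2 fold change by -0.38, and upper-quartile factors moved it by -0.26, from a main value of -0.15.

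PDGFRA, the PDGF receptor that binds both A and B chains, reached 1106 CPM in the fibroblast library, against 27.4, 30.6 and 60.7 CPM in ES lines No40, DSY127 and No20. The fibroblast value lay above all ES lines, as did 35.4% of all genes tested while 39% lay below all 3, and line No20 stood apart from the other ES lines. The log2 fold change was 4.81 ± 0.47 (SE; adjusted p = 0.00238, edgeR quasi-likelihood test), and 1.54% of genes tested had a larger one.

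NRP1 reached 317 CPM in the fibroblast library, against 6.77, 7.43 and 7.89 CPM in lines No40, DSY127 and No20. The ES lines lay close together, the highest 1.17-fold above the lowest, and far below the fibroblast value. Its fitted log2 fold change was 5.43 ± 0.32 (SE; adjusted p = 0.00119, edgeR quasi-likelihood test), with 1.03% of genes tested above it.

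ITGA11 had the largest rise of the 5 receptors, at 642.5 CPM in the fibroblast library, against 9.85, 12.5 and 8.14 CPM in lines No40, DSY127 and No20. Again no ES line came near the fibroblast value, and the log2 fold change was 5.98 ± 0.36 (SE; adjusted p = 0.00119, edgeR quasi-likelihood test). Of genes tested, 0.762% had a larger fold change.

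PDGFRB, the PDGF receptor that prefers B and D chains, reached 123 CPM in the fibroblast library, against 56.4, 59.3 and 86.8 CPM in lines No40, DSY127 and No20. The fibroblast library was above each ES line, but the log2 fold change of 0.87 ± 0.38 (SE) did not pass (adjusted p = 0.161, edgeR quasi-likelihood test). Its 95% interval, -0.04 to 1.78, ends well below the log2 fold change fitted for PDGFRA.

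FGFR1 had the highest ES levels of the 5 receptors and the smallest fold change. It reached 419 CPM in the fibroblast library, against 639, 447.5 and 417 CPM in lines No40, DSY127 and No20, so the fibroblast value lay within the ES range. The fitted change on the log2 scale was -0.26 ± 0.38 (SE; adjusted p = 0.67, edgeR quasi-likelihood test; 95% interval -1.16 to 0.65). Without line No40 its log2 fold change was 0.03, and relative to the median of all genes it ran from -0.24 to 0.07 over the fits tried.

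**Figure D1:**
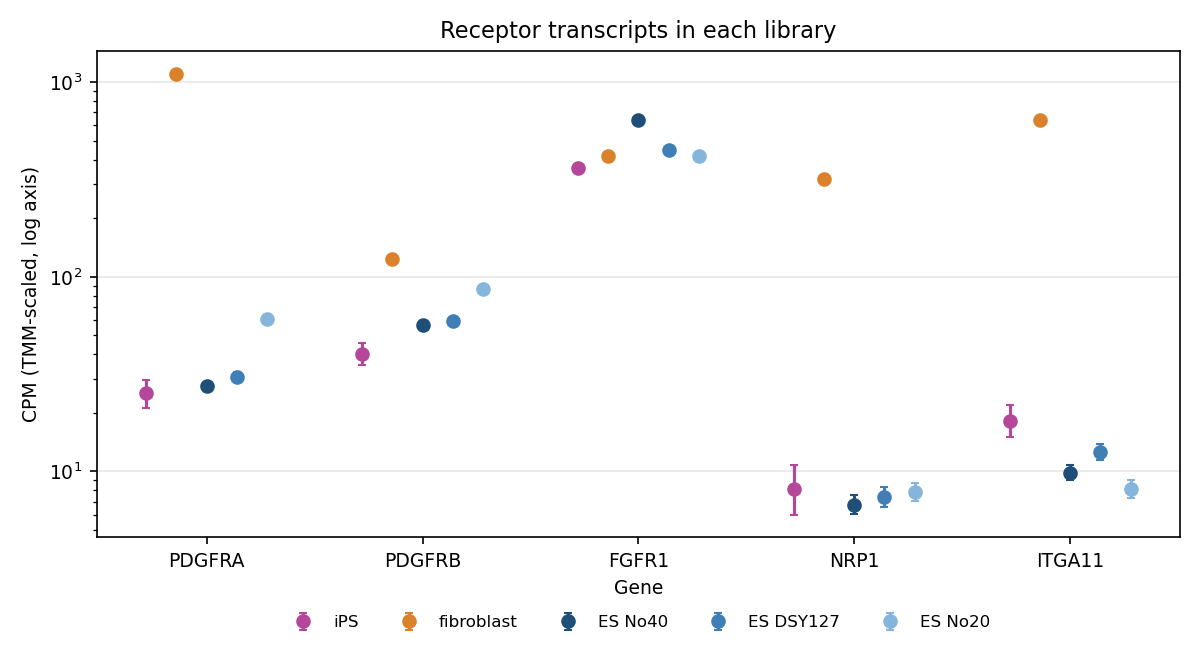
Level of each receptor in each library, in TMM-scaled CPM on a log axis; bars are 95% exact Poisson intervals and cover counting error only. PDGFRA, NRP1 and ITGA11 in the fibroblast library stand at 1106, 317 and 642.5 CPM, far above every other library, while FGFR1 stays between 360 and 639 CPM in all 5.

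The iPS comparison asked how far reprogrammed cells differ from ES lines. None of the 5 receptors passed the edgeR quasi-likelihood test (0 with DESeq2 and 0 with limma voom). Without adjustment 0 of 5 had a p under 0.05 either, where 5.56% of all genes were higher and 3.13% lower by that measure. Over all genes tested 19, or 0.109%, were called, all of them higher in the iPS library. Intervals below for the iPS library are 95% exact Poisson intervals.

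PDGFRA stood at 25.2 CPM in the iPS library (21.3 to 29.6, from 149 counts), against 39.6 ± 18.4 CPM in the ES lines (SD, n = 3). The iPS value was below each ES line, but its interval reached past the 27.4 CPM of line No40. On the log2 scale the fold change was -0.65, with a 95% interval of -1.94 to 0.64 (adjusted p = 0.783, edgeR quasi-likelihood test).

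PDGFRB stood at 40.1 CPM in the iPS library (35.1 to 45.5, from 237 counts), against 67.5 ± 16.8 CPM in the ES lines (SD, n = 3). Here the counting interval lay wholly below the lowest ES line, at 56.4 CPM. The fitted log2 fold change was -0.75, with a 95% interval of -1.76 to 0.25 (adjusted p = 0.689, edgeR quasi-likelihood test).

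FGFR1 stood at 360 CPM in the iPS library (345 to 376, from 2132 counts), against 501 ± 121 CPM in the ES lines (SD, n = 3). It too was below every ES line beyond counting error, the lowest being No20 at 417 CPM. Of all genes tested, 31.5% were below all 3 ES lines in the iPS library. The log2 fold change was -0.48, with a 95% interval of -1.39 to 0.44 (adjusted p = 0.776, edgeR quasi-likelihood test).

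NRP1 stood at 8.11 CPM in the iPS library (5.98 to 10.8, from 48 counts), against 7.36 ± 0.57 CPM in the ES lines (SD, n = 3), and its interval covers all 3 lines. Its log2 fold change of 0.14 had a 95% interval of -0.73 to 1.01 (adjusted p = 0.941, edgeR quasi-likelihood test).

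ITGA11 stood at 18.3 CPM in the iPS library (14.98 to 22.0, from 108 counts), against 10.2 ± 2.22 CPM in the ES lines (SD, n = 3). The counting interval lay above that of the highest line, DSY127 (11.4 to 13.8 CPM), and 26.5% of all genes tested were above all 3 lines. The log2 fold change was 0.84, with a 95% interval of -0.05 to 1.74 (unadjusted p = 0.061, adjusted p = 0.603, edgeR quasi-likelihood test). Fibroblast markers were also higher in sum in the iPS library than in the ES lines, as given above. The collagen genes COL1A1 and COL1A2 made up most of that iPS sum. The part of fibroblast markers in the ITGA11 value was not tested.

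**Figure D2:**
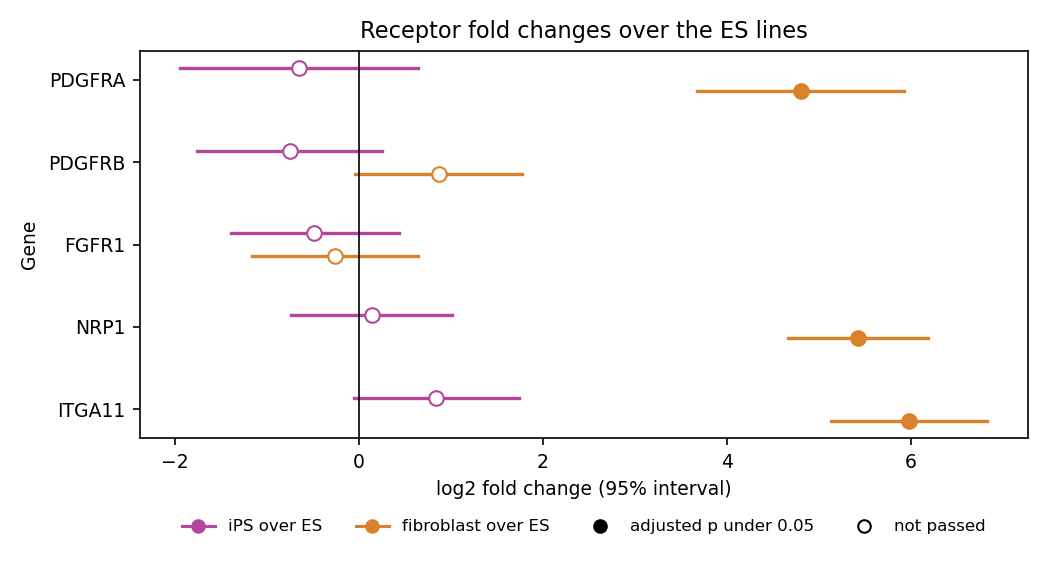
Fitted log2 fold change of each receptor with its 95% interval, for the iPS library over the ES lines and the fibroblast library over the ES lines; filled points passed at an adjusted p under 0.05. The fibroblast points of PDGFRA, NRP1 and ITGA11 (4.81, 5.43 and 5.98) are filled, and every iPS interval crosses 0.

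The iPS and fibroblast libraries, 1 each, were set side by side without a test. PDGFRA stood at 0.0228 of its fibroblast level in the iPS library (95% exact interval from counts, 0.0193 to 0.0267), NRP1 at 0.0256 (0.0189 to 0.034) and ITGA11 at 0.0284 (0.0233 to 0.0343). These 3 were therefore 43.9-fold, 39.1-fold and 35.2-fold lower, and 14.5% of genes tested were more than 4-fold lower in the iPS library than in the fibroblast library. PDGFRB was at 0.325 (0.284 to 0.37) of its fibroblast level and FGFR1 at 0.86 (0.822 to 0.899). The 2 comparisons with the ES lines share those lines, so their values stand side by side here and are not evidence for each other.

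Levels of different receptors can be compared only per length, and were ordered by CPM per kilobase of gene model. In the fibroblast library the order was PDGFRA (164), ITGA11 (138), NRP1 (87.8), FGFR1 (81.1) and PDGFRB (22.2 CPM per kilobase). PDGFRA and ITGA11 ranked 481 and 610 there by this measure among 18624 genes with a count. In the iPS library FGFR1 came first (69.7), followed by PDGFRB (7.23), ITGA11 (3.92), PDGFRA (3.73) and NRP1 (2.25 CPM per kilobase). FGFR1 was also first in every ES line, at 80.6 to 124 CPM per kilobase, and ranked between 575 and 1125 among 19623 to 20069 genes with a count. PDGFRB followed in each ES line at 10.2 to 15.7 and PDGFRA at 4.05 to 8.98 CPM per kilobase. NRP1 (1.88 to 2.19) and ITGA11 (1.75 to 2.69 CPM per kilobase) overlapped and changed places between ES lines.

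Among the ES lines themselves the receptors differed in spread. PDGFRA varied most, with the highest line 2.22-fold above the lowest, followed by PDGFRB and ITGA11 (1.54-fold each), FGFR1 (1.53-fold) and NRP1 (1.17-fold). Line No20 was highest for PDGFRA, PDGFRB and NRP1, No40 for FGFR1 and DSY127 for ITGA11. PDGFRA also marks primitive endoderm in early embryos, and the summed level of 6 measured primitive endoderm markers was 36.9 CPM in the iPS library, 38.1 CPM in the fibroblast library and 42.8, 120 and 134 CPM in lines No40, DSY127 and No20. GATA6 of this list stood at 4.73 CPM in the iPS library, 37.6 CPM in the fibroblast library and 16.4, 38.3 and 89.9 CPM in those ES lines, and GATA4, FOXA2 and HNF4A had 0 counts in the fibroblast library. GATA6 made up most of the primitive endoderm sum in line No20, and not all of the list followed its order. For GATA4 the fibroblast library was at least 99-fold below the mean of the ES lines, and 120-fold without line No20. For HNF4A these bounds were 167-fold and 174-fold, so No20 lay below the ES mean for GATA4 and HNF4A. For FOXA2 they were 134-fold and 113-fold, so No20 lay above it. The part of primitive endoderm cells in the PDGFRA level of line No20 was not tested. The 5 mesoderm markers matched summed to 45.5 CPM in the iPS library, 4.29 CPM in the fibroblast library and 23.6, 134 and 103 CPM in the same ES lines. Neural crest markers summed to 202, 3.63 and 235 to 275 CPM and blood markers to 35.3, 49.95 and 8.21 to 15.96 CPM in the iPS library, the fibroblast library and the ES lines. These 2 sums cover 4 matched markers each and do not show how many of them carry the level.

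Each receptor was then set against the other members of its family. PDGFRA made up 88.0% of the 2 PDGF receptors per length in the fibroblast library (95% Clopper-Pearson interval 87.7 to 88.3%), against 28.4%, 29.7% and 36.5% in lines No40, DSY127 and No20. Its share was 34.0% in the iPS library (29.4 to 38.8%), within the ES range. PDGFRB was thus the more abundant PDGF receptor per length in the iPS library and in all 3 ES lines, and PDGFRA in the fibroblast library.

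NRP1 made up 80.4% of the 2 neuropilins per length in the fibroblast library (80.0 to 80.8%, Clopper-Pearson), against 31.6%, 37.1% and 18.9% in lines No40, DSY127 and No20. In the iPS library its share was 19.9% (15.3 to 25%), close to that of line No20. NRP2, which binds VEGF-C and other class 3 semaphorins, stood at 79.4 CPM in the iPS library, 187 CPM in the fibroblast library and 35.6, 30.5 and 82.2 CPM in lines No40, DSY127 and No20. It did not pass in the fibroblast comparison (log2 fold change 1.92 ± 0.55 SE, adjusted p = 0.0559, edgeR quasi-likelihood test) but did without line No20 (adjusted p = 0.00104).

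Shares of the FGF receptors rest on gene models of 5172, 2442, 1453 and 3963 bases for FGFR1, FGFR2, FGFR3 and FGFR4. Counting intervals on the shares do not cover how complete these models are. By these lengths FGFR1 was the leading FGF receptor in every library. It made up 54.8% of FGFR1 to FGFR4 in the iPS library (52.7 to 56.9%, an interval from Poisson counts) and 85.6% in the fibroblast library (84.9 to 86.2%), against 63%, 51.9% and 64.1% in lines No40, DSY127 and No20. FGFR2 fell to 1.26 CPM in the fibroblast library, where the ES lines averaged 36.6 ± 8.39 CPM (SD, n = 3; log2 fold change -4.86 ± 0.59 SE, adjusted p = 0.00411, edgeR quasi-likelihood test). FGFR3 stood at 10.6 against 48.5 ± 28.4 CPM and FGFR4 at 23.2 against 70.3 ± 20.2 CPM, and neither passed (adjusted p = 0.0976 and 0.0608).

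ITGA11 made up 83.8% of the collagen-binding integrin alpha genes ITGA11, ITGA1, ITGA2 and ITGA10 per length in the fibroblast library (83.4 to 84.2%, from Poisson counts), against 23.6%, 26.8% and 24.3% in lines No40, DSY127 and No20. In the iPS library its share was 47.3% (40.9 to 53.8%), above all 3 ES lines. There ITGA1 stood at 6.93 CPM, where the ES lines averaged 16.3 ± 2.49 CPM (SD, n = 3; log2 fold change -1.23 ± 0.46 SE, adjusted p = 0.514, edgeR quasi-likelihood test). No test was made of the shares.

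**Figure D3:**
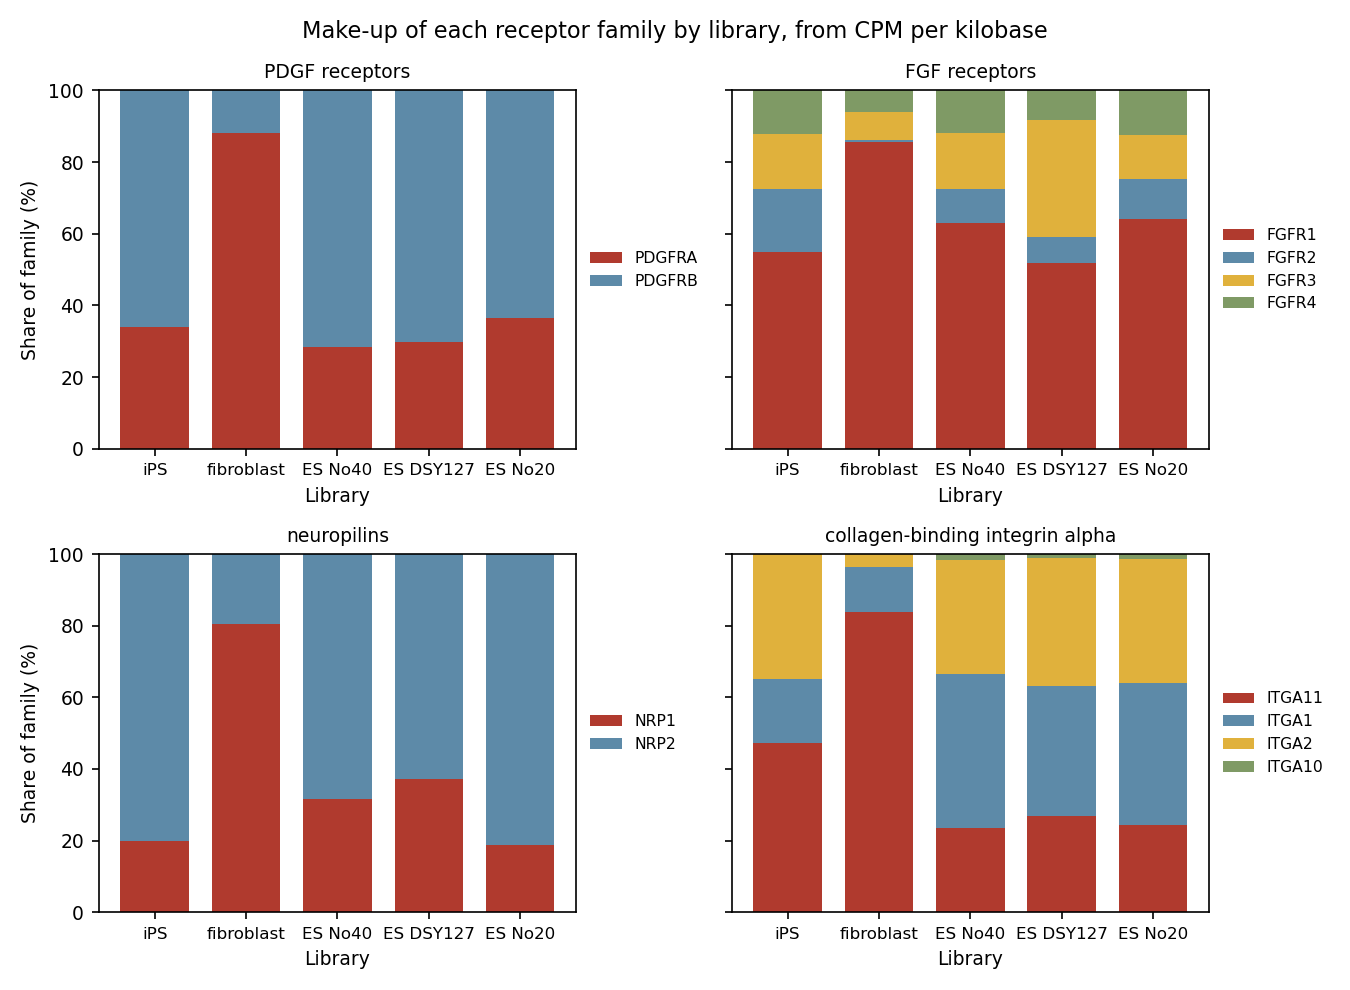
Share of each gene in its receptor family, in percent of the family's summed CPM per kilobase, for the iPS library, the fibroblast library and the 3 ES lines. In the fibroblast library PDGFRA, FGFR1, NRP1 and ITGA11 make up 88.0%, 85.6%, 80.4% and 83.8% of their families, above their shares in each other library.

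Ligands, partners and effectors of these receptors were described from 12 lists with 105 matched genes of 130 listed, and none of the counts below is a test of a list. Over these lists 29 of 103 genes tested rose and 9 fell in the fibroblast library, where 8.8% of all genes tested were called higher and 9.28% lower, so the share that fell was near that of all genes. The counts were 22 and 6 without line No40, where 924 of all genes tested were called higher and 818 lower. They were 36 and 18 without line No20 (2184 and 2366 of all genes) and 33 and 20 with DESeq2 (2009 and 2674). With scaling by total counts alone they were 21 and 16 (1066 and 2016), so the split between higher and lower depended on the scaling. In the main fit 1537 and 1620 of all genes were called. Over all genes tested the median log2 fold change was -0.15.

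Of 4 PDGF ligands, PDGFA fell (log2 fold change -3.12 ± 0.64 SE, adjusted p = 0.0203, edgeR quasi-likelihood test), and the list median was -1.51. PDGFA, the main PDGFRA ligand, was at 4.26 CPM in the fibroblast library, against 29.3, 54.4 and 27.5 CPM in lines No40, DSY127 and No20, a fall that did not pass without line No40. Of the 4 ligands, 2 fell without line DSY127, and 1 rose and 2 fell without line No20. PDGFB stood at 0.231 against 7.99 ± 7.01 CPM (adjusted p = 0.0548), PDGFC at 57.8 against 17.7 ± 9.44 CPM (adjusted p = 0.106) and PDGFD at 6.43 against 6.0 ± 1.82 CPM (adjusted p = 0.93). Among the 3 relatives of the PDGF receptors, KIT, CSF1R and FLT3, FLT3 was called lower at a trace level. It had 0 counts in the fibroblast library and averaged 0.494 CPM in the ES lines, at least 7.84-fold lower against a floor of 3 counts, and did not pass without line No40 or line DSY127. The median log2 fold change of these 3 was -1.79.

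None of the 5 FGF ligands tested passed the edgeR quasi-likelihood test (without adjustment 1 higher and 2 lower had a p under 0.05, 0 with DESeq2 and 1 higher with limma voom), with a median of -1.30. Without line No20, 1 rose. Of 18 FGF ligands listed, 7 matched an identifier. FGF2, the FGF commonly added to such cultures, stood at 0.84 against 2.07 ± 0.67 CPM. Its gene model holds only 2 exon blocks over 291 bases, and reads outside these blocks are not counted. Of the 6 other FGF receptors and co-receptors FGFR2 alone fell, and the list median was -0.52. The count was 2 without line No20 and 3 with DESeq2. Of 7 measured feedback and target genes of ERK signalling, such as SPRY1 and ETV5, 0 passed in the edgeR test (without adjustment 1 higher and 1 lower had a p under 0.05; DESeq2 called 1 lower and limma voom 0; median -0.71). Without line No40 1 fell, and without line No20 1 rose and 1 fell.

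Among 11 ligands that neuropilins bind, 4 rose in the fibroblast library and 0 fell in the edgeR test, with a median of -0.04. SEMA3G was lower at an unadjusted p under 0.05, and was called lower with DESeq2, with total counts alone and without line No20, where 5 rose, but not with limma voom. VEGFA stood at 176 against 29.6 ± 8.39 CPM (log2 fold change 2.58 ± 0.39 SE, adjusted p = 0.00754, edgeR quasi-likelihood test). SEMA3C and SEMA3D, class 3 semaphorins that guide migrating cells and axons, rose by 2.75 and 3.18 on the log2 scale. VEGFB rose by 1.40, and did not pass without line No40 or line DSY127, with total counts alone, with upper-quartile factors or at equal depth. Of 8 partner receptors of neuropilins, KDR and FLT4 fell and none rose in the edgeR test (median 0.31). NRP2 was called higher with DESeq2, with limma voom and without line No20, and DESeq2 called 3 lower, FLT1 being the other. KDR, the main VEGF-A receptor of endothelium, was at 2.04 CPM in the fibroblast library, against 85.2, 86.3 and 90.8 CPM in lines No40, DSY127 and No20 (log2 fold change -5.42 ± 0.48 SE, adjusted p = 0.00199, edgeR quasi-likelihood test). FLT4, a VEGF-C receptor, stood at 0.609 against 16.2 ± 7.25 CPM. NRP1 is also an endothelial gene, and the summed level of 9 endothelial markers was 254 CPM in the iPS library, 8.80 CPM in the fibroblast library and 310.5 to 466 CPM in the ES lines. Of these, PECAM1 stood at 1.07 CPM and CDH5 at 0.126 CPM in the fibroblast library. The part of endothelial cells in the NRP1 values was not tested.

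Of 6 other collagen receptors, 4 rose in the fibroblast library: DDR2, ITGA1, MRC2 and ITGB1 (median 1.92). The count was 4 in each fit without an ES line. ITGB1, the obligate partner of ITGA11, reached 2742 CPM in the fibroblast library, against 750, 650 and 915 CPM in lines No40, DSY127 and No20 (log2 fold change 1.83 ± 0.31 SE, adjusted p = 0.0113, edgeR quasi-likelihood test). DDR2, a kinase that fibrillar collagen activates, stood at 304.5 against 4.95 ± 1.91 CPM, a log2 fold change of 5.94 ± 0.48. MRC2, a receptor for collagen uptake, rose by 2.01 and ITGA1 by 2.59. ITGA2 stood at 27.0 against 13.9 ± 2.66 CPM and did not pass (adjusted p = 0.19).

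Of 18 other integrin subunits, 6 rose and 3 fell, with a median of -0.66. ITGA4, ITGA8 and ITGB3 rose by 6.0, 4.84 and 3.84 on the log2 scale. ITGB2, the beta chain of leukocyte integrins, had 0 counts in the fibroblast library and was at least 214-fold lower than the 13.5 CPM of the ES lines. Without line No40, 4 rose and 1 fell, and without line No20, 7 rose and 7 fell. Of 11 fibrillar collagen genes, the ligands of ITGA11 among them, 8 rose (median 4.94), and 8 rose in each fit without an ES line. COL1A1 stood at 32530 against 862 ± 348 CPM, and COL1A2, COL5A2 and COL24A1 rose by 6.29, 5.14 and 4.94.

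Of 12 adaptors of receptor kinases, PIK3R1 and PIK3CA, subunits of PI3-kinase, rose by 3.98 and 1.63 (median 0.57), PIK3CA not without line No40 or line DSY127, with total counts alone or with upper-quartile factors. Of 12 integrin adaptors, 5 rose and 1 fell (median 1.19), the talin gene TLN1 and the parvin gene PARVA by 2.89 each and the paxillin gene PXN by 1.52. Without line No40, 2 rose and 1 fell and PXN did not pass, and without line DSY127, 3 rose and 2 fell. With total counts alone, 2 rose and 2 fell. PXN also did not pass with total counts alone, with upper-quartile factors or at equal depth. FERMT1, the kindlin of epithelia, fell by 3.90. PDGFRB is a marker of mural cells, and the 3 mural markers matched summed to 88.9 CPM in the iPS library, 2785 CPM in the fibroblast library and 108 to 139 CPM in the ES lines. In the fibroblast library ACTA2 made up 2733 CPM of this sum and rose, while MYH11 and NOTCH3, at 5.42 and 46.4 CPM, did not pass. The part of mural cells in the PDGFRB value was not tested.

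In the iPS comparison 1 of 103 genes tested on these lists passed the edgeR quasi-likelihood test, COL1A2, at 3447 CPM in the iPS library where the ES lines averaged 250 ± 19.05 CPM (log2 fold change 3.78 ± 0.27 SE, adjusted p = 0.0205). Of all genes tested 0.109% were called. COL1A2 did not pass without line No40, where 0 of all genes tested were called. Without line No20, 4 list genes were called higher, beside 256 of all genes tested. Without adjustment 8 higher and 8 lower had a p under 0.05 in the edgeR test, beside 5.56% and 3.13% of all genes. DESeq2 called 4 list genes higher, beside 339 of all genes tested. DDR2 stood at 36.0 CPM in the iPS library, against 5.69, 2.78 and 6.38 CPM in lines No40, DSY127 and No20 (log2 fold change 2.86 ± 0.47 SE, adjusted p = 0.0932), and passed without line No20 (adjusted p = 0.0112). COL1A1 stood at 4922 against 862 ± 348 CPM (adjusted p = 0.105), VEGFA at 87.2 against 29.6 ± 8.39 CPM (adjusted p = 0.257) and ITGB1 at 657 against 772 ± 134 CPM (adjusted p = 0.883). List medians in this comparison ran from -0.84 for other integrin subunits to 0.39 for KIT, CSF1R and FLT3, beside -0.11 for all genes tested. CSF1R had no count in the iPS library and no bound at that depth, and the median of KIT and FLT3 was 0.42.

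**Figure D4:**
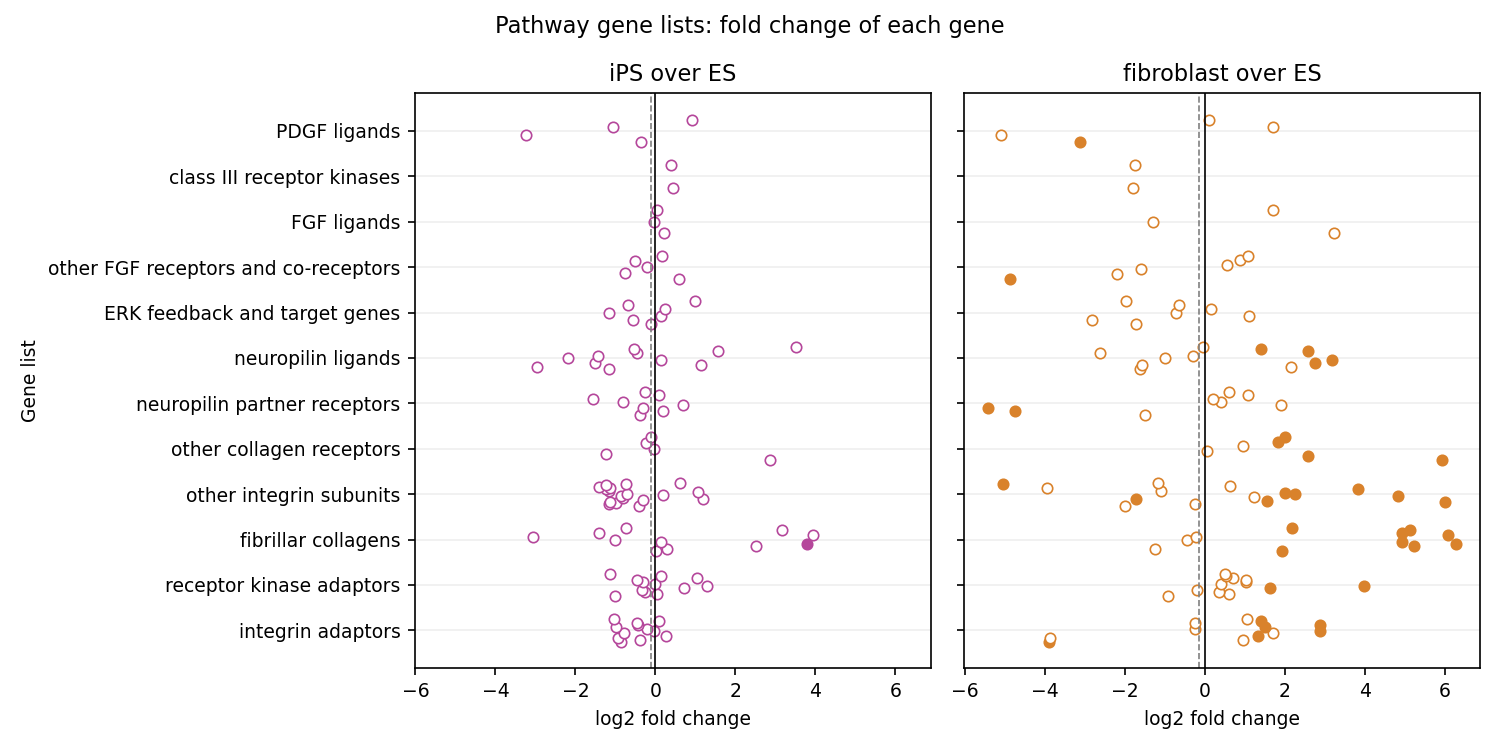
Fitted log2 fold change of each list gene, for the iPS library over the ES lines (left, 98 genes drawn) and the fibroblast library over the ES lines (right, 97 genes drawn); filled points passed at an adjusted p under 0.05 and the dashed line is the median of all genes. Genes without a count in a compared group (5 and 6) are not drawn. Fibrillar collagens and other collagen receptors have 8 and 4 filled points on the right of 0 for fibroblasts, and COL1A2 is the one filled iPS point.

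Genes whose profile over the 5 libraries was most like each receptor were taken from 8655 named genes with a mean of at least 5 CPM, by the root mean square difference of log2 CPM after centring each gene. The libraries are shared by all genes, so likeness rests on 5 points. Nearest to PDGFRA were IGFBP6, an IGF-binding protein (0.243), PAM, a peptide-amidating enzyme (0.263), and the cadherin FAT4 (0.309), against a median difference of 2.04 over all candidates. IGFBP6 stood at 3.04 CPM in the iPS library, 159 CPM in the fibroblast library and 5.55, 4.28 and 9.40 CPM in lines No40, DSY127 and No20, so it too was highest in No20 among the ES lines. Nearest to NRP1 were FBLN5, an elastic fibre protein (0.0954), THBS1, thrombospondin-1 (0.24), and the GDNF co-receptor GFRA1 (0.242; median 2.13). Nearest to ITGA11 were the matrix protein tenascin-C, TNC (0.128), PDE3A (0.161) and the cadherin CDH13 (0.262; median 2.32). TNC stood at 120 CPM in the iPS library, 5262 CPM in the fibroblast library and 68.8, 102.5 and 58.5 CPM in lines No40, DSY127 and No20, the same order of libraries as for ITGA11. Such matches, for TNC as for IGFBP6, follow largely from how these genes were picked.

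For the other 2 receptors, whose profiles are flatter, differences are small for many genes. PDGFRB lay nearest PHLDB2 (0.0707), the cell cycle inhibitor CDKN1B (0.0821) and BIRC2 (0.0847; median 0.684). FGFR1 lay nearest the mRNA capping enzyme gene RNGTT (0.0379), CEP44 (0.0384) and SARM1 (0.0409; median 0.547). Among the receptors themselves, NRP1 and ITGA11 were the most alike pair (0.394), ahead of PDGFRA and NRP1 (0.452), PDGFRB and FGFR1 (0.628) and PDGFRA and ITGA11 (0.836). PDGFRA and PDGFRB differed by 1.6, and FGFR1 and ITGA11 differed most, by 2.43.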

How the data were processed

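Raw counts of reads for each of 30811 genes were deposited by the authors in a joint table and in 1 file per library, and 0 counts differed between these. The joint table also gives gene length in bases. The submitters' processing notes list featureCounts 1.5.2, STAR 2.5.3a and Trim Galore 0.4.0, without roles. Neither the build nor the handling of strand and multi-mapping reads is stated.

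Symbols came from a gene name table that matched 12660 identifiers (41.1%). In R 4.3.3, edgeR 4.0.16 was run on counts after filterByExpr and TMM scaling, with all 5 libraries in 1 fit (glmQLFit, glmQLFTest) and Benjamini-Hochberg adjustment over 17462 genes. Each unreplicated library is taken to have the ES spread. The p-values rest on the spread between the 3 ES lines, moderated across genes (common coefficient of variation 0.458). SE is the log2 fold change divided by the root of the F statistic. Log2 CPM used a prior count of 2. Alternatives used DESeq2 1.42.0, limma 3.58.1, other scalings and filters, left-out ES lines, and libraries thinned to 5746449 counts. Intervals and floors (3 counts) cover counting error only, since no molecular identifiers are mentioned. Steps were run on simulated data in which every library had the spread of the ES lines. That assumption was therefore not tested.

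The receptors and lists were chosen with earlier results of these data known. Named genes are the 5 receptors, up to 4 called members of each pathway list with the smallest adjusted p, 12 ligands, partners and relatives whatever their result, and the 3 nearest profiles. Members of the marker lists, CSF1R, KIT and the other genes named beyond this rule (SPRY1, ETV5, ITGA1 in the iPS library, ITGA2, DDR2 in the iPS library, FLT1, SEMA3G, ITGAX, PAX3) were chosen after their values were seen. Of 67 marker entries, 48 matched. No sequence is shown, as none was among the files used here.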

Additional observations from a re-analysis of the deposited data

How the results depend on the processing

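Over 12 alternatives each, all 10 receptor tests kept their side of the threshold, and those called kept their direction. In the fibroblast comparison, log2 fold changes ran from 4.42 to 5.37 for PDGFRA, 5.04 to 5.59 for NRP1, 5.60 to 6.25 for ITGA11, 0.48 to 1.20 for PDGFRB and -0.64 to 0.03 for FGFR1. In the iPS comparison they ran from -0.89 to -0.18 for PDGFRA, 0.06 to 0.22 for NRP1, 0.73 to 1.02 for ITGA11, -0.89 to -0.51 for PDGFRB and -0.57 to -0.28 for FGFR1. The highest adjusted p of PDGFRA in the fibroblast comparison was 0.0223, without line No40.

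Counts over all genes moved more. In the iPS comparison, 19 genes called became 204 with no low-count filter, 400 with DESeq2, 5 with limma voom and 96 at equal depth, and 0 to 268 when 1 ES line was left out. The fibroblast count of 3157 ran from 1742 to 4550 when 1 ES line was left out. The cause was not tested. With limma voom its split was 1674 higher and 1009 lower. No paired analysis was possible because the fibroblast and iPS groups hold 1 library each. Of 5746449 counts in the iPS library, NRP1 had 48.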

Other observations

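ITGAX, the alpha chain of a leukocyte integrin that pairs with ITGB2, was the most abundant integrin alpha gene per length in the iPS library among those listed, at 1423 CPM, with 324 CPM in the fibroblast library and 403, 783 and 865 CPM in ES lines No40, DSY127 and No20. ITGB2 itself stood at 6.09 CPM in the iPS library, at 0 counts in the fibroblast library and at 15.6, 17.05 and 7.78 CPM in the same ES lines. The gene model of ITGAX in the files holds 15 exon blocks over 1840 bases. Neither gene passed in the iPS comparison (adjusted p = 0.579 and 0.717, edgeR quasi-likelihood test).

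PAX3, a paired-box factor of muscle progenitors and neural crest, stood at 30.1 CPM in the iPS library, 1.89 CPM in the fibroblast library and 0.183, 0.25 and 0.572 CPM in ES lines No40, DSY127 and No20. Its log2 fold change over the ES lines was 6.47 ± 0.74 (SE, adjusted p = 0.052, edgeR quasi-likelihood test). In that test PAX3 passed without line DSY127 (adjusted p = 0.0344) or line No20 (adjusted p = 0.00126) but not without line No40 (adjusted p = 0.32). It passed with DESeq2, upper-quartile factors, no low-count filter, a stricter filter, only the groups compared and equal depth. With limma voom, RLE scaling or total counts alone it did not pass.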
